A study of Mus musculus with 9 samples.

Results

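The genes described here are 9 factors of endoderm and mesendoderm, Gata4, Gata6, Foxa1, Foxa2, Sox17, Sox7, Mixl1, Gsc and Cer1, which were taken by name from the 47729 genes with a deposited FPKM value. RNA was sequenced from mouse embryonic stem cells (ESCs), pluripotent cells of the early embryo kept in LIF/serum, that carry a doxycycline (dox)-inducible transgene for a forced homodimer of E2A. E2A is a basic helix-loop-helix transcription factor that binds short DNA motifs called E-boxes, and in the forced homodimer a linker joins a pair of E47 proteins, E47 being a splice form of E2A. The 0 h libraries came from this inducible line without dox, and the others from cells given dox at 1 µg/ml for 18 h or for 24 h. Each of the 3 time points had 3 biological replicates, numbered 1 to 3, which gave 9 libraries. The treatment protocol in the labels gives other times, and 18 h and 24 h are those of the sample titles and treatment entries. All libraries share the transgene and the LIF/serum medium, and no dox-treated line lacking the transgene was analysed here.

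The endoderm gives rise to the lining of the gut and its glands, and it forms more than once in the mouse embryo. The primitive endoderm separates from the epiblast before implantation and builds the yolk sac. It depends on GATA and SOX transcription factors, of which GATA6 acts at the top, and GATA4, SOX17 and SOX7 follow. The definitive endoderm comes later, out of the mesendoderm of the primitive streak, where Nodal signalling switches on Mixl1, Gsc and the FOXA factors. ESCs can be driven to either fate, and in LIF/serum a few cells in a culture may show such genes without instruction.

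All 9 factors were expressed at under 1 FPKM in every library. FPKM values are reads scaled to gene length and library size, so they allow levels to be compared between genes. At 0 h the highest mean was that of Mixl1, at 0.477±0.114 FPKM (mean±s.d., n=3), which was above 51.2% of the genes with any read. It was followed by Gata6 at 0.315±0.0247, Foxa1 at 0.175±0.0326, Gata4 at 0.175±0.0769, Sox7 at 0.158±0.0976, Sox17 at 0.110±0.0512 and Foxa2 at 0.0905±0.0140. Gsc, at 0.0110±0.0190, and Cer1, at 0.00804±0.0139, stood at the bottom. In this order the libraries of Mixl1 lay above those of Gata6, those of Gata6 above those of Foxa1, and those of Foxa2 above those of Gsc, whereas the ranges of all other neighbours overlapped. At 24 h the order was Mixl1, Gata6, Foxa1, Gsc, Foxa2, Sox17, Gata4, Sox7 and Cer1, and only the ranges of Mixl1 and Gata6 were separate. Gsc moved from the eighth place to the fourth, and Sox7 from the fifth to the eighth.

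The reads behind these levels were few. The deposited values are whole multiples of 1 read, which allowed the reads on each gene to be recovered. Libraries held between 22028363 and 26471569 reads on genes, of which Mixl1 had 33.3 per library on average, Gata6 26.4, Foxa1 17.8, Sox17 16.7, Gata4 14.7, Foxa2 7.89, Sox7 7.11, Gsc 3.22 and Cer1 0.889. In bulk RNA, a few cells with much of a transcript and many cells with little of it cannot be told apart. As a check of the labels, Tcf3, which encodes E2A, had 39.1±1.80 FPKM before dox, 110.1±5.52 after 18 h and 102.0±7.55 after 24 h. Reads of the transgene and of the cell's own gene were not told apart. Of the 8 ESC markers examined, all were at or above 1 FPKM, and they summed to 1299 to 1975 FPKM at 0 h and 974 to 1586 at 24 h. Dppa5a and Pou5f1 carried most of that sum, whereas Nanog was at 34.5 to 45.1 FPKM at 0 h and 64.1 to 78.8 at 24 h. Markers of early neural cells summed to 37.5 to 49.6 FPKM at 0 h and 61.3 to 88.7 at 24 h, most of it Tubb3 (36.3 to 48.8 and 54.4 to 80.0 FPKM).

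**Figure D1:**
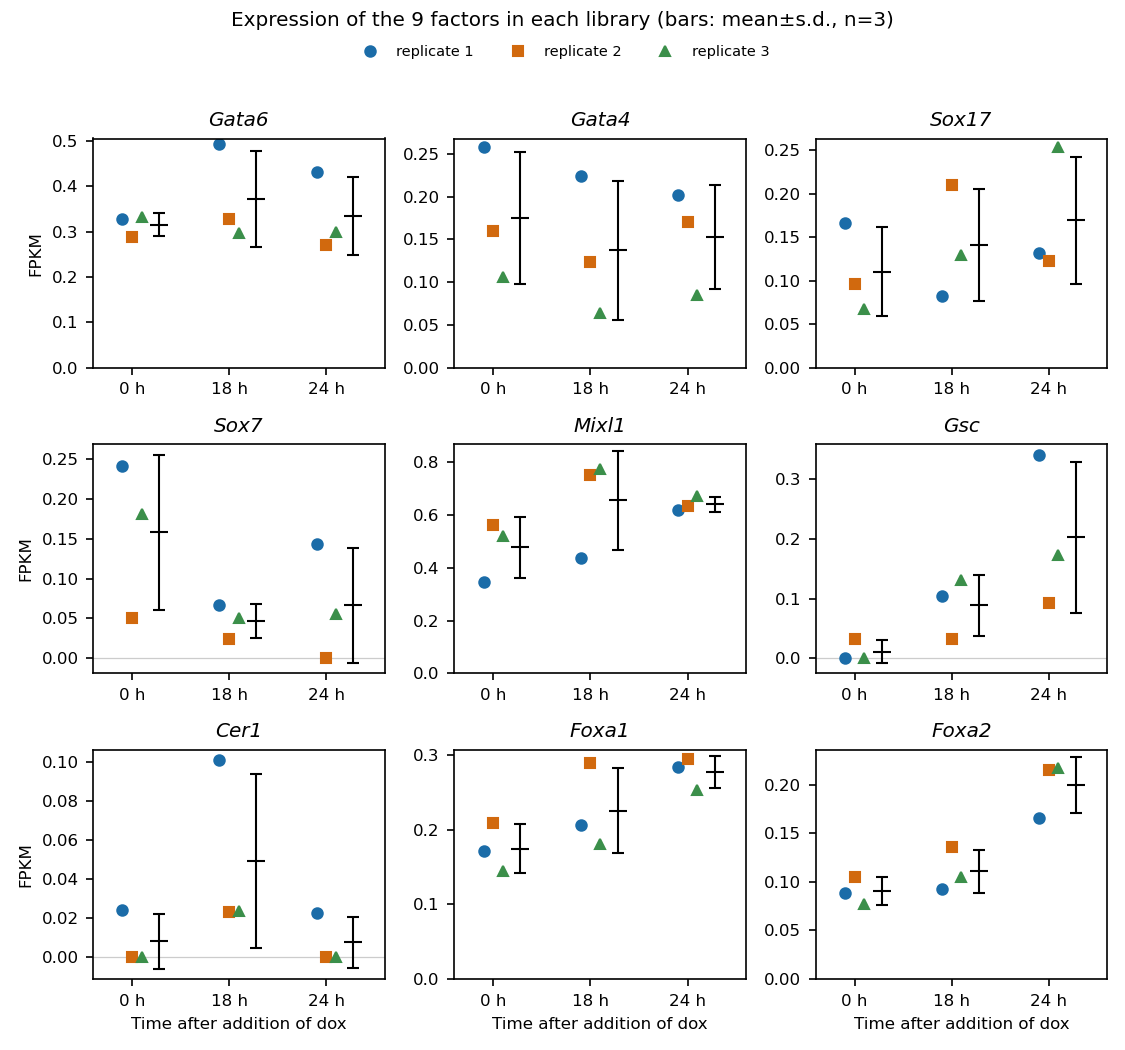
FPKM of the 9 factors (vertical axes, each panel with its own scale) in the 3 libraries of each time point, with symbols for the replicate number and black bars for the mean±s.d. (n=3). All 24 h libraries of Foxa1, Foxa2, Mixl1 and Gsc lie above all their 0 h libraries, an arrangement that 16.7% of all genes tested had. Gsc and Foxa2 reached the mean of 0.1 FPKM needed for the test only through their libraries after dox. Sox7 is low at 18 h. Gata4, Foxa1 and Sox7 keep the order of their replicates, as did 13.6% of all genes tested.

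Differences between time points were tested with limma on log2(FPKM+0.1) in the 17951 genes that reached 0.1 FPKM on average. A gene was called upregulated or downregulated where its p, adjusted by Benjamini–Hochberg over all genes tested, was no higher than 0.05 and it moved by a log2 fold-change of 1 or more in either direction. For low genes such as these, the added 0.1 makes changes look smaller than they are. Of the 9 factors 7 were tested, and Sox7 and Cer1 fell below the filter. Gsc passed it, at a mean of 0.101 FPKM, only through the libraries in which it was high. Foxa2, at 0.0905 FPKM at 0 h, likewise passed it only through its libraries after dox. None of the 7 was called at 18 h compared with 0 h, where 2.06% of all genes tested were called (1.33% upregulated and 0.724% downregulated). None was called at 24 h compared with 0 h, where 2.9% were (2.07% upregulated and 0.836% downregulated), or at 24 h compared with 18 h, where 0.0223% were. At an unadjusted p under 0.05 the factors numbered 0 at 18 h compared with 0 h against 25.4% of all genes, and 0 at 24 h compared with 18 h against 5.59%. At 24 h compared with 0 h they numbered 2, Gsc and Foxa2, against 28.2% of all genes. The median log2 fold-change of the 7 was 0.19 at 18 h and 0.38 at 24 h compared with 0 h, and 0.16 at 24 h compared with 18 h. Over all genes tested these medians were -0.0030, 0.0040 and 0.0070. Fits on the recovered reads, or with the replicate number as a block, gave calls for Gsc and Sox7, which are given beside these genes.

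**Figure D2:**
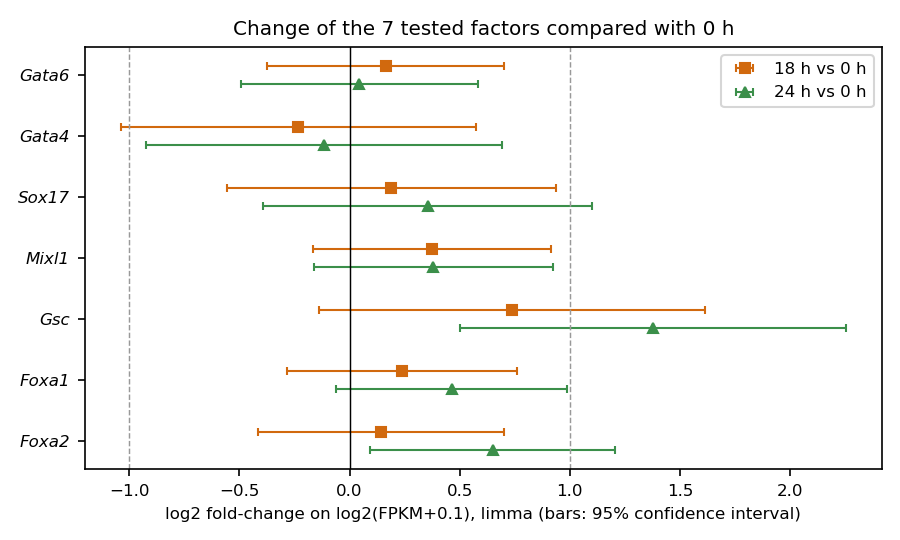
log2 fold-change on log2(FPKM+0.1) (horizontal axis) of the 7 tested factors at 18 h and 24 h compared with 0 h, with 95% confidence intervals from limma and dashed lines at log2 fold-changes of -1 and 1. At 24 h the intervals of Gsc and Foxa2 lie above 0, and all the other intervals include 0. Such an interval amounts to an unadjusted limma p under 0.05, which 28.2% of all genes tested had in this comparison, in either direction. Gsc and Foxa2 passed the FPKM filter only through their libraries after dox.

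Gata6 (ENSMUSG00000005836) encodes the GATA factor that starts primitive endoderm formation. Its position in GRCm38 is chromosome 18, 11052064 to 11085635, plus strand, where it overlaps the transcript 1010001N08Rik on the other strand. Its expression in replicates 1, 2 and 3 was 0.328, 0.287 and 0.331 FPKM before dox, 0.493, 0.327 and 0.298 after 18 h, and 0.431, 0.270 and 0.299 after 24 h. The time points overlapped. The log2 fold-change of Gata6 was 0.16 at 18 h (95% confidence interval -0.37 to 0.70; adjusted p = 0.706 by limma) and 0.04 at 24 h (-0.49 to 0.58; adjusted p = 0.926 by limma). Both intervals leave out a doubling on this scale. On the recovered reads, Gata6 had 70 reads at 0 h and 83 at 24 h over 3 libraries, a ratio of 1.09 per library total with a counting interval of 0.785 to 1.52.

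Gata4 (ENSMUSG00000021944; chromosome 14 from 63198922 to 63271692, minus strand) encodes a GATA factor of primitive endoderm, gut and heart. Its libraries held 24, 15 and 9 reads before dox, 20, 12 and 6 after 18 h, and 20, 17 and 9 after 24 h. In FPKM these were 0.258, 0.160 and 0.106, then 0.224, 0.123 and 0.0635, then 0.202, 0.171 and 0.0847. The time points overlapped, and replicate 1 was the highest and replicate 3 the lowest at each of them. Within each of the 3 replicate numbers Gata4 was lower at 18 h than at 0 h. At 24 h it was lower than at 0 h in replicates 1 and 3 and higher in replicate 2. The log2 fold-change of Gata4 was -0.23 at 18 h (-1.04 to 0.57; adjusted p = 0.724 by limma) and -0.12 at 24 h (-0.92 to 0.69; adjusted p = 0.869 by limma).

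Sox17 (ENSMUSG00000025902; chromosome 1 from 4490931 to 4497354, minus strand) encodes a SOX factor required in both primitive and definitive endoderm, and the gene overlaps Gm37587 on the other strand. Its expression was 0.167, 0.0960 and 0.0675 FPKM before dox, 0.0825, 0.210 and 0.130 after 18 h, and 0.132, 0.123 and 0.254 after 24 h. A different replicate was the highest at each time point, and the time points overlapped. The log2 fold-change of Sox17 was 0.19 at 18 h (-0.56 to 0.94; adjusted p = 0.759 by limma) and 0.35 at 24 h (-0.39 to 1.10; adjusted p = 0.523 by limma). The interval at 24 h includes both no change and a doubling on this scale. With a library left out the value at 24 h ranged from 0.14 to 0.54 in limma and from 0.058 to 1.25 in blocked edgeR (edgeR adjusted p = 0.0555 to 0.953), and at 18 h blocked edgeR gave -0.23 to 0.98. Sox17 differed in direction between replicate numbers, being lower at 24 h than at 0 h in replicate 1 and higher in replicates 2 and 3.

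Sox7 (ENSMUSG00000063060; chromosome 14 from 63943673 to 63950732, plus strand) encodes a SOX factor of the same subgroup as SOX17, found in primitive endoderm and in blood vessels. Before dox its libraries held 19, 4 and 13 reads, after 18 h they held 5, 2 and 4, and after 24 h they held 12, 0 and 5. In FPKM these were 0.242, 0.0505 and 0.181, then 0.0663, 0.0243 and 0.0501, then 0.143, 0 and 0.0557. The time points overlapped, since replicate 2 was already low at 0 h, but within each of the 3 replicate numbers Sox7 was lower at 18 h and at 24 h than at 0 h. Summed over replicates the reads were 36 before dox, 11 after 18 h and 17 after 24 h, a ratio to 0 h of 0.303 (counting interval 0.139 to 0.608) and of 0.435 (0.229 to 0.794) per library total. The intervals cover counting error only.

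Below the FPKM filter, Sox7 was tested with edgeR's quasi-likelihood method on the recovered reads of 19210 genes. Without a block its log2 fold-change at 18 h was -1.73 (edgeR adjusted p = 0.202). With the replicate number as a block Sox7 was downregulated at 18 h, with a value of -1.70 (edgeR adjusted p = 0.0305), where 1.62% of the genes tested were called downregulated. At 24 h the blocked value was -1.31 (edgeR adjusted p = 0.0611), where 1.77% were called downregulated. Without the block the value at 24 h was -1.24 (edgeR adjusted p = 0.301). With a library left out the blocked value at 24 h ranged from -2.07 to -1.08 (edgeR adjusted p = 0.0580 to 0.234). DESeq2 with the block gave -1.69 at 18 h (adjusted p = 0.118 by DESeq2), and limma without the filter gave -0.74 (adjusted p = 0.357 by limma). The call at 18 h was lost when replicate 1 or replicate 3 of 0 h or of 18 h was left out, and the adjusted p over all alternatives run for Sox7 at 18 h ranged from 0.0262 to 0.357.

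**Figure D3:**
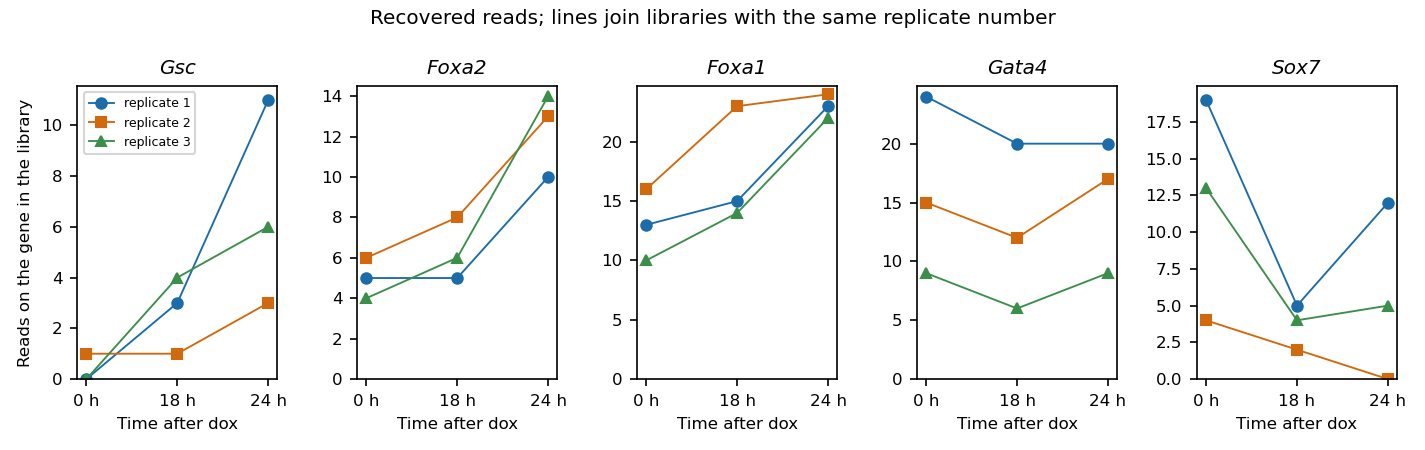
Reads recovered on Gsc, Foxa2, Foxa1, Gata4 and Sox7 in each library (vertical axes, each from 0), with lines that join libraries of the same replicate number. The lines of Gsc, Foxa1 and Foxa2 end higher at 24 h than at 0 h in all 3 replicates, and those of Sox7 end lower. The lines of Foxa1, Gata4 and Sox7 do not cross.

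Mixl1 (ENSMUSG00000026497) encodes a homeodomain factor of the primitive streak that acts in mesoderm and endoderm formation downstream of Nodal. Its position is chromosome 1, 180693043 to 180697034, minus strand. Its FPKM values were 0.347, 0.563 and 0.521 before dox, 0.438, 0.752 and 0.775 after 18 h, and 0.618, 0.632 and 0.672 after 24 h. All 24 h libraries lay above all 0 h libraries, with the 18 h libraries spread across both. The log2 fold-change of Mixl1 was 0.37 at 18 h (-0.17 to 0.92; adjusted p = 0.370 by limma) and 0.38 at 24 h (-0.16 to 0.92; adjusted p = 0.335 by limma), and neither passed the test. With a library left out, limma gave 0.20 to 0.60 at 18 h and 0.21 to 0.49 at 24 h. Replicate 1, the lowest at every time point, differed most between 0 h and 24 h.

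Gsc (ENSMUSG00000021095) encodes goosecoid, the homeodomain repressor that marks the anterior primitive streak and its mesendoderm. Its position is chromosome 12, 104471209 to 104473330, minus strand. Before dox its libraries held 0, 1 and 0 reads, after 18 h they held 3, 1 and 4, and after 24 h they held 11, 3 and 6. In FPKM these were 0, 0.0329 and 0, then 0.103, 0.0316 and 0.130, then 0.341, 0.0927 and 0.174. Every 24 h library lay above every 0 h library, and the 18 h libraries overlapped with both. The sum over 3 libraries went from 1 read at 0 h, which is within the floor of 3 reads, to 8 at 18 h and 20 at 24 h. Per library total this is a ratio to 0 h of 7.93 (counting interval 1.06 to 352) at 18 h and of 18.4 (2.95 to 763) at 24 h, which counting error alone leaves wide.

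In the limma fit the log2 fold-change of Gsc was 0.74 at 18 h (s.e. 0.389; adjusted p = 0.272 by limma) and 1.38 at 24 h (s.e. 0.389; 95% confidence interval 0.50 to 2.25; adjusted p = 0.0508 by limma), just outside the threshold. With the replicate number as a block limma gave an adjusted p of 0.0416 at 24 h, and Gsc was then called upregulated, as were 2.34% of all genes tested. It had entered the limma fits only through the libraries in which it was high, so this call is a description. On recovered reads Gsc was called at 24 h too, with fitted values of 3.74 without the block (edgeR adjusted p = 0.0282) and 3.70 with it (edgeR adjusted p = 0.00950). The table of recovered reads holds no gene with fewer than 10 reads, and Gsc had 1 of its reads at 0 h, so that it entered these fits by its later libraries as well and the edgeR calls are likewise a description. The fitted values depend on how edgeR treats libraries without a read. In the same comparison 2.81% of the genes were called upregulated without the block and 3.53% with it. DESeq2 left the adjusted p of Gsc undefined. With a library left out in turn, the blocked edgeR call was kept in 7 of 9 fits, and it was lost without replicate 1 of 0 h or replicate 1 of 24 h. The fitted value ranged from 2.81 to 6.03 in these fits, the latter without replicate 2 of 0 h. Over all the alternatives run the adjusted p of Gsc at 24 h ranged from 0.00425 to 0.136. At 18 h Gsc was not called in the blocked fits of all libraries (limma adjusted p = 0.225 and edgeR adjusted p = 0.127), but without replicate 2 of 0 h it was called in blocked edgeR (4.90, adjusted p = 0.0450), where the fitted values ranged from 1.69 to 4.90. In the fit of all libraries 24 h did not differ detectably from 18 h (log2 fold-change 0.64; adjusted p = 0.951 by limma).

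Cer1 (ENSMUSG00000038192; chromosome 4 from 82881751 to 82885148, minus strand) encodes Cerberus-like, a secreted antagonist of Nodal and BMP that is made by the anterior visceral endoderm and the early definitive endoderm. It had 1, 0 and 0 reads before dox, 4, 1 and 1 after 18 h, and 1, 0 and 0 after 24 h. Every 18 h library thus held a read, and only replicate 1 did so at the other times. The 6 reads at 18 h stand in a ratio of 5.95 to the 1 read at 0 h (counting interval 0.722 to 274), which includes no difference, and no ratio is given between 24 h and 0 h since both were within the floor. Without the FPKM filter the adjusted p of Cer1 at 18 h was 0.314 by limma.

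Foxa1 and Foxa2 encode forkhead pioneer factors that open chromatin in definitive endoderm, and Foxa2 is also made in the anterior streak, node and notochord. Foxa1 (ENSMUSG00000035451) lies on chromosome 12 from 57540628 to 57546916 and Foxa2 (ENSMUSG00000037025) on chromosome 2 from 148042877 to 148046969, both on the minus strand. Foxa1 had 0.171, 0.209 and 0.144 FPKM before dox, 0.206, 0.289 and 0.182 after 18 h, and 0.284, 0.295 and 0.253 after 24 h. The libraries of Foxa2 held 5, 6 and 4 reads before dox, 5, 8 and 6 after 18 h, and 10, 13 and 14 after 24 h. In FPKM the values of Foxa2 were 0.0885, 0.105 and 0.0776, then 0.0923, 0.135 and 0.105, then 0.166, 0.215 and 0.217. The 24 h libraries of both genes lay above all their 0 h libraries, those of Foxa2 also lay above all its 18 h libraries, and both genes were higher at 24 h than at 0 h in each of the 3 replicate numbers.

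Neither FOXA gene was called. The log2 fold-change of Foxa2 at 24 h was 0.65 (s.e. 0.247; 0.093 to 1.21; limma adjusted p = 0.123, or 0.0962 in the blocked fit), and its reads stood in a ratio of 2.27 to those at 0 h (counting interval 1.22 to 4.45). With edgeR on the recovered reads the value for Foxa2 was 1.11 (adjusted p = 0.0852 without the block and 0.0720 with it, both by edgeR). Over all the alternatives run the adjusted p of Foxa2 at 24 h ranged from 0.0172, in limma without the intensity trend and at the same 0.65, to 0.280. The log2 fold-change of Foxa1 at 24 h was 0.46 (s.e. 0.232; -0.060 to 0.99; limma adjusted p = 0.227, or 0.142 in the blocked fit). At 18 h the log2 fold-changes were 0.14 for Foxa2 (adjusted p = 0.756 by limma) and 0.24 for Foxa1 (adjusted p = 0.564 by limma). Foxa1, Foxa2, Mixl1 and Gsc are thus 4 of 7 tested factors with all 24 h libraries above all 0 h libraries, an arrangement that 16.7% of all genes tested had. All 24 h libraries lay above all 18 h libraries for 6.81% of them. Of these 4, Gsc was tested only through the libraries in which it was high. Foxa2, at 0.0905 FPKM at 0 h, also passed the filter only through its libraries after dox.

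Since the induced factor binds E-boxes, the promoters of the factors were searched for the letters CANNTG, and for its forms CAGCTG and CACCTG, on both strands. The promoters are those of RefSeq on GRCm38.p6, which run from 250 bases before to 50 bases after each start site. Sequences of 4 of 9 factors (Gsc, Cer1, Foxa1 and Foxa2) were among those available here, and the other factors were not searched. Of 32851 promoters of this length, 72.3% hold CANNTG, 16.3% CAGCTG and 20.2% CACCTG. The promoter of Gsc holds 1 CANNTG match, 210 bases before its RefSeq start at 104473236, and neither CAGCTG nor CACCTG. The annotated gene starts further upstream, at 104473330, so part of this promoter lies within it. The match lies before both starts and is nearer to that of the annotated gene. That of Foxa1 holds 2 CANNTG matches, of which the one 23 bases before the start is CACCTG on the other strand and lies in an intron of the annotated gene. That of Cer1 holds 3, of which 2 are CACCTG, 72 and 61 bases before the start. Foxa2 has 3 start sites, of which 2 hold no match and the other holds CAAATG alone. The sites of Gsc, Cer1 and Foxa1 before the start are shown on the minus strand with 12 bases on either side and the E-box in capitals, since E-boxes are the motif of the induced factor. They lie at chr12:104473429-104473458 (Gsc), chr4:82885206-82885235 (Cer1, with both of its CACCTG matches) and chr12:57546117-57546146 (Foxa1).
Gsc: ggttctgtttgtCATCTGcatattaccagg
Cer1: gtttgctttgccCACCTGctgacCACCTGc
Foxa1: gcggccgcctcaCAGGTGcacctcgggctt
A match is a description of the letters and not a bound site.

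Several factors kept a fixed order of replicates across time points. The same replicate was the highest at all 3 times for Gata4 and Sox7 (replicate 1), for Foxa1 (replicate 2) and, on at most 4 reads per library, for Cer1 (replicate 1). Of all 17951 genes tested, 31.4% had the same replicate highest at all times, and 14.3% had replicate 1 highest. The whole order of the 3 replicates was the same at every time for Gata4, Foxa1 and Sox7, as for 13.6% of all genes tested. Among 11 primitive endoderm markers, replicate 1 was the highest throughout for Gata4, Sox7, Amn and Lama1, whereas replicate 3 was the highest throughout for Sparc. Replicate 1 also held the highest level of the ESC marker Dppa5a at each time (1069, 905 and 905 FPKM, against at most 641 in the other libraries) and the lowest of the fibroblast marker Col1a1 (1.20, 1.09 and 1.52 FPKM, against at least 1.99). The other ESC markers examined were also highest in replicate 1 at each time. Of the other fibroblast markers, Dcn, Col3a1, Postn, Col1a2 and Acta2 were lowest in replicate 1 at each time. Thy1 was instead highest in replicate 1 at 0 h (2.39 FPKM against 2.09 and 1.75) and at 18 h (1.49 against 1.27 and 0.882). Lum was highest in replicate 1 at 18 h and lowest in it at 0 h and 24 h. The part of these differences in the values of the factors was not tested.

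The 11 primitive endoderm markers summed to 144 to 186 FPKM at 0 h, 171 to 232 at 18 h and 175 to 242 at 24 h. Sparc, Lamb1 and Col4a1, which encode matrix proteins that many cells make, carried most of this sum, with 102 to 188 FPKM for Sparc alone. The transcription factors of the list, Gata4, Gata6, Sox17 and Sox7, and the receptor Pdgfra were under 0.5 FPKM in each library. None of the 11 was at 0 in all libraries. The 8 fibroblast markers summed to 26.5 to 56.2 FPKM at 0 h and 43.2 to 84.2 at 24 h, and 5 of 8 reached 1 FPKM. Acta2, an actin that other cells make too, carried most of this sum (19.6 to 41.6 FPKM at 0 h and 37.1 to 73.4 at 24 h), whereas Thy1 was at 1.75 to 2.39 FPKM before dox and 0.994 to 1.33 after 24 h.

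Other genes of the same pathways were examined as lists, and most of their members did not pass the test either. Among 15 primitive streak and mesendoderm genes, 13 were tested, of which 1 was upregulated and 1 downregulated at 24 h compared with 0 h, against 2.07% and 0.836% of all genes tested. The upregulated gene was Lhx1, a LIM homeodomain factor of the anterior streak and node, with 0.0206, 0.0205 and 0.0113 FPKM before dox, 0.140, 0.128 and 0.183 after 18 h, and 0.232, 0.308 and 0.207 after 24 h. Like Gsc, it reached the FPKM filter only through the libraries taken after dox, in which it was high. Its log2 fold-change at 24 h was 1.56 (adjusted p = 0.00755 by limma). The downregulated gene was Fgf4, a growth factor of ESCs and the streak, which fell from 16.8±4.98 to 6.98±1.97 FPKM (log2 fold-change -1.25, adjusted p = 0.0170 by limma). In the blocked fit, where 2.34% of all genes were upregulated, the upregulated genes of the list were 2, by the addition of Wnt3, a signal that induces the streak (log2 fold-change 1.64, adjusted p = 0.0761 without the block and 0.000646 with it, both in limma). T, the brachyury gene of the streak, was downregulated at 24 h in the blocked edgeR fit (-1.02, adjusted p = 0.000710 by edgeR), as were 1.77% of all genes. In limma its value was -0.90 (adjusted p = 0.217 without the block and 0.00713 with it), which is short of the minimum fold-change. The median of the list was 0.14 at 24 h, against 0.0040 over all genes tested.

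Of 15 other transcription factors of endoderm, 11 were tested, and 2 were upregulated and 0 downregulated at 24 h compared with 0 h, against 2.07% and 0.836% of all genes tested. Cdx2, the caudal homeodomain factor of trophectoderm, posterior embryo and intestine, rose from 0.476±0.218 to 3.44±0.684 FPKM (log2 fold-change 2.68, adjusted p = 0.00117 by limma). Sox18, of the same SOX subgroup as Sox17 and Sox7 and known in blood vessels, rose from 0.440±0.202 to 1.09±0.277 FPKM (log2 fold-change 1.18, adjusted p = 0.0373 by limma). The FOXA family member Foxa3 was at 1.23±0.260 FPKM at 0 h and 1.58±0.0840 at 24 h (log2 fold-change 0.36, adjusted p = 0.162 by limma). Foxa3 was thus the most abundant of the 3 FOXA genes at both times. Its 24 h libraries (lowest 1.520 FPKM) lay just above its 0 h libraries (highest 1.513 FPKM), an arrangement that 16.7% of all genes tested had. Gata5, the remaining GATA factor of endoderm, was at or below 0.107 FPKM in every library. The median of the list was 0.21 at 24 h.

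Among 23 products of extra-embryonic endoderm, 17 were tested, with 2 upregulated and 0 downregulated at 24 h, beside 2.07% and 0.836% of all genes. The upregulated genes were Plat, the tissue plasminogen activator secreted by parietal endoderm, from 3.64±0.982 to 8.13±1.27 FPKM (log2 fold-change 1.16, adjusted p = 0.0187 by limma), and Pth1r, a parathyroid hormone receptor of parietal endoderm, from 1.04±0.123 to 2.40±0.322 FPKM (log2 fold-change 1.13, adjusted p = 0.00228 by limma). In blocked edgeR Amn, an endocytic receptor subunit of visceral endoderm, was downregulated at 18 h (-1.01, edgeR adjusted p = 0.0199), as were 1.62% of all genes, and at 24 h its value was -0.96 (edgeR adjusted p = 0.0204). In limma Amn had -0.84 at 18 h (limma adjusted p = 0.0859 without the block and 0.0270 with it), short of the minimum fold-change. Ttr and Apoa4, made by visceral endoderm, were listed at 0 in all libraries, and Afp did not exceed 0.0238 FPKM. Of 10 genes of definitive endoderm surface and gut, 9 were tested and 1 was upregulated at 24 h (2.07% of all genes were), the chemokine receptor Cxcr4, from 0.445±0.138 to 1.73±0.351 FPKM (log2 fold-change 1.76, adjusted p = 0.00227 by limma). None of the 9 was downregulated. The medians of these lists at 24 h were 0.31 and -0.051.

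Of 18 genes of Nodal and activin signalling, the pathway upstream of Mixl1, Gsc and Cer1, 17 were tested. At 18 h 2 were downregulated and 0 upregulated, beside 0.724% and 1.33% of all genes, and at 24 h 1 was downregulated and 0 upregulated, beside 0.836% and 2.07%. Nodal itself was at 22.6±1.53 FPKM at 0 h and 20.5±1.91 at 24 h (log2 fold-change -0.15, adjusted p = 0.258 by limma). Its co-receptor Tdgf1 fell from 130.6±12.1 to 47.5±4.38 FPKM (-1.46, adjusted p = 0.000115 by limma). Lefty2, a secreted inhibitor of Nodal, fell at 18 h (-1.79, adjusted p = 0.00211 by limma) from 12.3±2.05 to 3.50±0.759 FPKM. At 24 h Lefty2 was at 6.68±1.54 FPKM, a log2 fold-change of -0.88 from 0 h (limma adjusted p = 0.0271) and of 0.91 from 18 h (limma adjusted p = 0.524 without the block and 0.0401 with it), both short of the minimum fold-change. Lefty1, the other secreted Nodal inhibitor of the list, was at 45.3±3.82 FPKM at 0 h and 79.9±20.9 at 24 h, and its log2 fold-change of 0.79 was short of that minimum too (limma adjusted p = 0.0209). So were the 0.98 of Smad3, a transducer of the pathway (limma adjusted p = 0.00338), and the -0.84 of Pcsk6, also of the list (limma adjusted p = 0.00910). In the blocked fit 1 gene was upregulated at 24 h (2.34% of all genes were), Cfc1, the other co-receptor of Nodal, which had a value of 1.12 (limma adjusted p = 0.194 without the block and 0.0249 with it). The median of the list was 0.035 at 24 h.

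**Figure D4:**
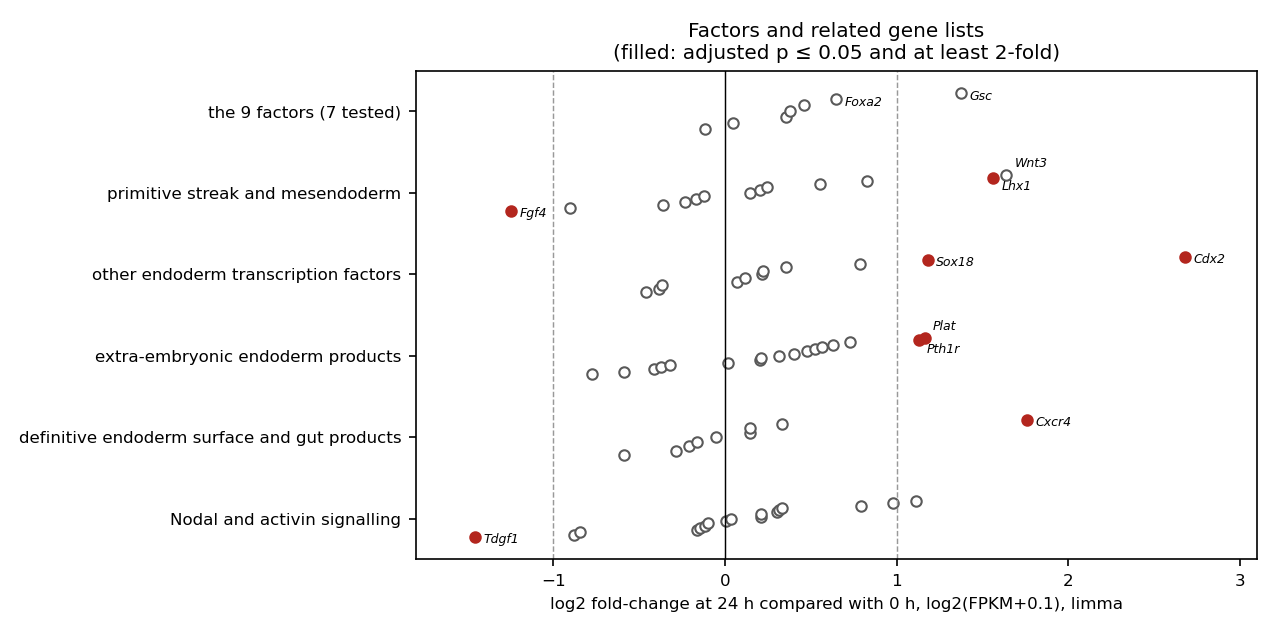
log2 fold-change at 24 h compared with 0 h on log2(FPKM+0.1) (horizontal axis) of the 7 tested factors and of the tested genes of 5 related lists, 1 circle per gene, filled where the gene was called by limma without the block. The 7 circles of the factors are open, and the filled circles of the other lists are Lhx1, Fgf4, Cdx2, Sox18, Plat, Pth1r, Cxcr4 and Tdgf1.

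For the factors with a mean of at least 10 reads per library, the genes most alike across the 9 libraries were sought. The search covered 11893 genes that reached 1 FPKM on average, by Pearson's r on log2(FPKM+0.1). The libraries share depth, replicate number and time, so r is given as a description alone. For Gata4 these were Gm21411 (r = 0.982), Nnat (0.978) and Gm10451 (0.974), and for Gata6 they were Pknox1 (0.933), Ptges2 (0.929) and Dbp (0.925). For Foxa1 they were Twist1 (0.994), Fubp1 (0.969) and Arpc5 (0.955). For Sox17 they were Fkbp1b (0.907), Alg14 (0.892) and Vstm5 (0.889), and for Mixl1 they were Itm2a (0.982), Crot (0.974) and Msl3 (0.960). Genes at the level of the 9 factors could not be among them. Between these 5 factors r ranged from -0.761 (Gata4 with Mixl1) to 0.511 (Foxa1 with Mixl1), with 0.506 for Foxa1 and Sox17 and 0.497 for Gata4 and Gata6.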

How the data were processed

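RNA-seq was performed on the 9 libraries. Per the labels and the methods, the authors prepared stranded polyadenylated RNA libraries, trimmed reads with cutadapt 1.9, aligned them to GRCm38 and used edgeR 3.16.5. How strand and multiply aligned reads were counted is not given in the sources used here. The authors deposited FPKM values for 47729 genes (19906 at 0 throughout) and, for 19210 genes, a per-library signal scaled to effective library size. The latter table also holds mean columns and the authors' own fold-changes and p-values, which were not used. Each signal value was a whole number of reads within a tolerance of 0.02 (100% of values). Cer1 is in the FPKM table alone, and its reads came from the FPKM steps. Replicates differed beyond counting noise (chi-square per degree of freedom 5.79 to 17.8).

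Time points came from the sample titles. The main test was limma 3.58.1 (lmFit, eBayes with trend) in R 4.3.3 on log2(FPKM+0.1), over all 9 libraries and without a block. The confidence intervals of fold-changes are from this fit and do not use the replicate number. With the block the standard errors were smaller for Gata4, Gata6, Foxa1 and Mixl1 and larger for Foxa2, Sox17 and Gsc. The blocked limma adjusted p at 24 h compared with 0 h was 0.763 for Gata4, 0.891 for Gata6, 0.510 for Sox17 and 0.156 for Mixl1. Alternatives were pseudocounts of 1 and 0.01, no filter, a minimum of 1 FPKM, quantile normalization, median centring, no trend, only the time points compared, no minimum or a larger minimum fold-change, each library left out, the replicate block, and edgeR 4.0.16 and DESeq2 1.42.0 on recovered reads with and without the block. Scripts were tested on simulated data. The replicate numbers were taken as pairing the samples because deviations from the group mean correlated across 11893 genes. The correlation was 0.325 on average (0.211 to 0.548) in 9 library pairs of the same number. In 18 pairs of different numbers it was -0.161 (-0.399 to 0.110). Deviations within a time point cancel out, so this negative mean follows from the positive one and is not separate evidence. Intervals are 95% and cover counting error only for reads. An exact permutation test of 3 libraries against 3 cannot reach the threshold and was not used. Coordinates are from GENCODE on GRCm38. Python 3.11.15, pandas 2.3.3, scipy 1.17.1 and matplotlib 3.10.9 were used. The factors and lists were chosen with earlier results of these data known. All factors are named, with the called genes of each list of largest absolute log2 fold-change at 24 h, and up to 3 most alike genes. Wnt3, T, Cfc1, the cell type markers singled out, Amn, Lefty1, Lefty2, Smad3, Pcsk6, Foxa3, Gata5, Nodal, Ttr, Apoa4 and Afp were named after their values were seen.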

Additional observations from a re-analysis of the deposited data

How the results depend on the processing

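The factors are limited by their few reads, and no factor remained under a minimum of 1 FPKM, so that alternative gave no value. The blocked edgeR fits with a library left out, and limma with the block and no filter, were chosen after the data were examined. With the replicate number as a block the count of called factors went at 24 h compared with 0 h from 0 to 1 (Gsc) in limma, with or without the filter (2.34% and 1.43% of all genes upregulated), and was 1 in edgeR with or without the block (3.53% and 2.81%), 1 with a pseudocount of 0.01 (2.27%) and 1 without the intensity trend (1.94%). In the blocked edgeR fit it was 1 (Sox7) at 18 h. With a library left out of that fit it ranged from 0 to 2 at 18 h (Gsc and Sox7, without replicate 2 of 0 h) and from 0 to 1 at 24 h, beside 3.34% to 4.31% and 4.38% to 5.2% of all genes called in either direction. It was 0 in the 9 limma fits with a library left out, but Gsc fell below the filter in 3 of them and could not be called there. The replicate block changed no other call of the factors. The median log2 fold-change, which moves with the pseudocount by its construction, was 0.059 at 18 h, 0.12 at 24 h and 0.036 between them with a pseudocount of 1, and 0.32, 0.59 and 0.27 with 0.01. It was 0.32, 0.51 and 0.27 in edgeR, 0.31, 0.51 and 0.28 in edgeR with the block, and 0.32, 0.51 and 0.27 in DESeq2. DESeq2 with the block gave 0.30 at 18 h and 0.51 at 24 h. With a library left out the limma median ranged from 0.10 (without replicate 2 of 18 h) to 0.28 at 18 h compared with 0 h, from 0.25 to 0.49 at 24 h compared with 0 h and from 0.12 to 0.36 (without replicate 2 of 18 h) at 24 h compared with 18 h. Uncalled values near 0 changed sign. For Gata6 at 24 h compared with 0 h the value was -0.018 with quantile normalization. For Mixl1 at 24 h compared with 18 h it was -0.0063 with a pseudocount of 1, -0.045 with quantile normalization, -0.0066 with median centring, -0.042 in edgeR and -0.026 in edgeR with the block. With a library left out, limma gave -0.011 to 0.28 for Gata6, -0.0093 to 0.38 for Sox17 and -0.49 to 0.0074 for Gata4 at 18 h compared with 0 h. It gave -0.30 to 0.094 for Gata4 and -0.11 to 0.15 for Gata6 at 24 h compared with 0 h. At 24 h compared with 18 h it gave -0.28 to 0.055 for Gata6, -0.048 to 0.36 for Sox17, -0.22 to 0.13 for Mixl1 and -0.12 to 0.37 for Gata4, and blocked edgeR gave -0.37 to 0.61 for Sox7. The causes of these changes were not tested. DESeq2 left some adjusted p undefined, and those gave no call.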
